A study of Mus musculus with 16 samples.

Results

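Monocarboxylate and thyroid hormone transporters were represented by 7 of the 53333 rows of the gene table: Slc16a1 (the protein MCT1), Slc16a7 (MCT2), Slc16a3 (MCT4), Slc16a6 (MCT7), Slc16a13 (MCT13), Slc16a10 (MCT10, also called TAT1) and Bsg (basigin). The 7 genes were selected on gene family after levels in these same tables had been read, and the contrast that drew attention to them is not recorded. Their values are therefore a description, and the adjusted p-values below, taken over all genes tested, are not independent evidence about the genes as a set. The cells were mHiPPoE-2, a transformed line from mouse hippocampus that the labels call a neuron line, from the strain Crl:CFW(SW)-024. Total RNA depleted of ribosomal RNA was sequenced in 16 libraries, 2 for each of 8 groups. The METTL3 KO group came from 1 clonal isolate edited with Cas9 to lose METTL3, the enzyme that writes the m6A mark into RNA. The 2 KO rescue clones had lost RBM45, an RNA-binding protein, and carried F-HA-tagged RBM45_mut[delta]gRNA. The 2 RBM45 KO clones were edited with Cas9 and a guide, and the 2 control clones received Cas9 with no gRNA. The control columns of the tables carry names that match no label and were taken as the controls because the other 12 columns match the other groups, so every control value rests on that assignment. The WT cells were neither edited nor described as cloned, so every other group also differs from WT in having passed through a single cell. No group was treated. The labels do not say whether the 2 libraries of a group came from separate cultures, so p-values here speak of the spread among these libraries alone, which may be technical.

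Monocarboxylate transporters of the SLC16 family carry lactate, pyruvate and ketone bodies together with a proton, and so let cells that make lactate pass it to cells that burn it. In brain, MCT1 is typical of glia and endothelium, MCT2 is the high-affinity carrier of neurons, and MCT4 is the carrier that strongly glycolytic cells use to release lactate. MCT1 and MCT4 reach the cell surface with basigin, a membrane glycoprotein of the immunoglobulin superfamily, whereas MCT2 prefers embigin. Not every member of the family carries lactate: MCT10 moves thyroid hormones and aromatic amino acids.

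The gene-table totals were 7193908 to 18751324 counts per library. The edits themselves were visible in part. Mettl3 stood at 3.71 and 3.35 CPM (counts scaled by library size after TMM normalization) in METTL3 KO, against 11.6 and 8.78 CPM in WT. Rbm45 stood at 21.1 to 25.9 CPM in KO rescue, at 5.70 to 10.7 CPM in RBM45 KO and at 12.8 to 16.6 CPM in the controls. Of 10 neuron markers, 7 stayed under 1 CPM in every library, among them Rbfox3, Snap25, Syt1 and Gad1, while Map2 had 39.7 to 138 CPM, Eno2 4.85 to 9.20 CPM and Tubb3 0.322 to 2.78 CPM. The 10 fibroblast and mesenchymal markers were uneven. Dcn and Lum stayed under 1 CPM, while the highest were Vim, with 419 to 1404 CPM, and Fn1, with 617 to 1935 CPM. Col1a2, Col3a1 and Thy1 were low, with medians over the libraries of 1.78, 1.51 and 4.31 CPM. Acta2 and Pdgfrb had medians of 459.5 and 69.9 CPM, and Col1a1 ranged from 29.2 to 1416 CPM. The WT libraries differed from each other by more than 2-fold in 8.58% of the tested genes, the highest share among the 8 groups, where the range over the other groups was 2.43% to 6.09%. The 12 most abundant gene rows held 53.5% to 56.8% of the counts in METTL3 KO, against 64.6% to 68.5% in WT. They held 53.3% to 61.6% in KO rescue, 63.9% to 70.6% in RBM45 KO and 58.6% to 69.6% in the controls. The summed level of 10 fibroblast and mesenchymal markers was 1608 to 1645 CPM in METTL3 KO, 2749 to 3384 in KO rescue, 3234 to 5223 in RBM45 KO, 2851 to 4322 in the controls and 2527 to 2613 in WT, and its part in the results below was not tested. In bulk RNA a smaller share of expressing cells and less RNA per cell cannot be told apart.

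Per length of exon, Bsg was far above every transporter of the family. Exon-bin fragments of Bsg came to 90.9 ± 10.7 CPM per kb in METTL3 KO (SD, n = 2) and 165 ± 25.4 in WT (SD, n = 2). Slc16a1 was the leading transporter, at 5.06 ± 0.562 CPM per kb in METTL3 KO and 10.3 ± 3.42 in WT. The other members were lower: averaged over the 16 libraries, Slc16a10 had 0.401, Slc16a13 0.254, Slc16a3 0.222, Slc16a7 0.137 and Slc16a6 0.127 CPM per kb. Embigin (Emb), the partner that MCT2 prefers, had 0.0321, so of the 2 chaperones Bsg was the one with a high level in these cells. These per-length levels come from exon bins in which a fragment counts once for each bin it touches, and they serve only to order genes.

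**Figure D1:**
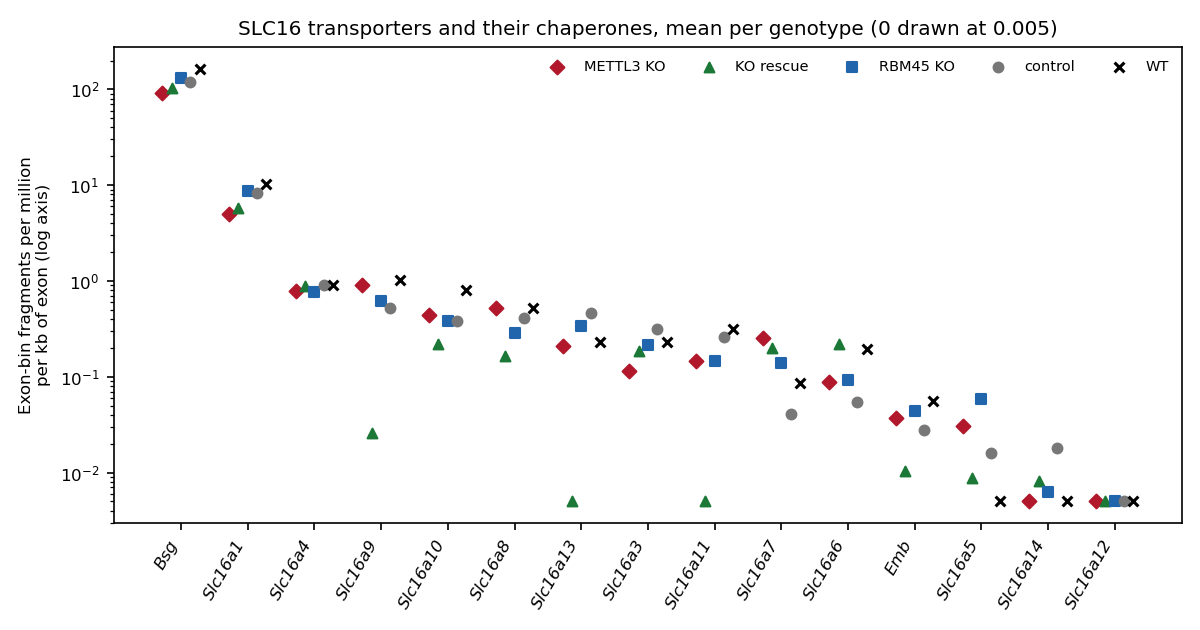
Mean level of 13 SLC16 genes and of the chaperone genes Bsg and Emb in METTL3 KO, KO rescue, RBM45 KO, control and WT libraries, as exon-bin CPM per kb of exon on a log axis, with a mean of 0 drawn at 0.005. Bsg and Slc16a1 lie above all other genes in every genotype, and Slc16a13 and Slc16a11 are at 0 in KO rescue.

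Slc16a1 encodes MCT1, the widely expressed carrier of lactate, pyruvate and ketone bodies. The gene lies on the plus strand of chromosome 3, from 104638668 to 104658462 (GRCm38). Its start region is shown because Slc16a1 is the transporter with the highest level here. It spans chr3:104638414-104638713 (plus strand, RefSeq on GRCm38.p6), from 250 bases before to 50 bases after the annotated start, with each CG pair in capitals.
Slc16a1: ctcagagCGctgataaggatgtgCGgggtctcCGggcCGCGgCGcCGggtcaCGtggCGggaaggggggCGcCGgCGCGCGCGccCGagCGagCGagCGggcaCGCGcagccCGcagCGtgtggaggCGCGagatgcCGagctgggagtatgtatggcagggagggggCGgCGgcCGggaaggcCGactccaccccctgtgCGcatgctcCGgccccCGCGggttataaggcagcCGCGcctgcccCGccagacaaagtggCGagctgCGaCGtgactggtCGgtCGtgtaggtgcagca
The CG pair, which reads the same on both strands, occurred 42 times in these 300 bases, and 3.03% of the 32851 promoters in the table held as many. The RefSeq table matched 3 of the 7 members. The median promoter held 7, and 73.7% of the bases of the Slc16a1 region were G or C.

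Slc16a1 had 21.5 and 19.3 CPM in METTL3 KO, against 46.7 and 28.7 CPM in WT. Both METTL3 KO libraries were below both WT libraries, and the WT libraries were far apart. In KO rescue it had 20.4 and 20.1 CPM in clone 2 and 26.4 and 24.8 CPM in clone 1. In RBM45 KO it had 29.7 and 28.9 CPM in clone 2 and 36.2 and 36.8 CPM in clone 1. The controls had 29.5 and 26.0 CPM in clone 2 and 37.2 and 33.0 CPM in clone 1. The KO rescue libraries, from 20.1 to 26.4 CPM, lay below all RBM45 KO libraries, and they touched the controls only at the lower end, where control clone 2 reached 26.0 CPM. The RBM45 KO and control libraries covered nearly the same range. In order of group means, neighbouring groups overlapped from WT through RBM45 KO clone 1 to control clone 1. They also overlapped from RBM45 KO clone 2 through control clone 2 to KO rescue clone 1, and between METTL3 KO and KO rescue clone 2. WT, at 46.7 and 28.7 CPM, also overlapped RBM45 KO clone 2 and control clone 2, so it was not separate from those groups.

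Slc16a7 encodes MCT2, the carrier with a high affinity for lactate and pyruvate. The gene lies on the minus strand of chromosome 10, from 125219270 to 125389465. It had 5.84 and 5.17 CPM in METTL3 KO, against 1.01 and 1.70 CPM in WT. In KO rescue it had 4.22 and 4.10 CPM in clone 2 and 3.97 and 2.85 CPM in clone 1. RBM45 KO libraries had 2.09 and 3.18 CPM in clone 2 and 1.83 and 2.33 CPM in clone 1. The controls were lowest, with 0.199 and 0.678 CPM in clone 2 and 0.996 and 0.678 CPM in clone 1. No RBM45 KO or KO rescue library overlapped a control library, and KO rescue lay above RBM45 KO except that 1 rescue library, at 2.85 CPM, was below the highest RBM45 KO library. The level did not return towards the controls in the rescue clones.

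The Slc16a7 reads came from both parts of the gene. In the separate intron table, introns of Slc16a7 had 38 counts in METTL3 KO and 1 in WT, or 1.57 ± 0.324 CPM in METTL3 KO and 0.0499 ± 0.0705 CPM in WT (SD, n = 2 each). The same introns had 1.09 ± 0.446 CPM in KO rescue, 0.710 ± 0.192 in RBM45 KO and 0.178 ± 0.121 in the controls (SD, n = 4 each). The gene table counts whole gene bodies, so these intron fragments are also part of the gene-level values. Exon bins alone were also higher in METTL3 KO than in WT, with 0.254 ± 0.0973 CPM per kb in METTL3 KO and 0.0851 ± 0.0345 in WT (SD, n = 2 each). They had 0.199 ± 0.0460 in KO rescue, 0.138 ± 0.0624 in RBM45 KO and 0.0413 ± 0.0264 in the controls (SD, n = 4 each). A gene that overlaps Slc16a7 on the other strand, Gm47862, had 18 counts in all libraries together, against 345 in the exon bins and 150 in the introns of Slc16a7.

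Slc16a3 encodes MCT4, the low-affinity carrier through which glycolytic cells release lactate. It lies on the plus strand of chromosome 11, from 120948480 to 120960868. Its start region, chr11:120948817-120949116 (plus strand, RefSeq on GRCm38.p6), is shown beside that of Slc16a1 because both are rich in CG pairs while their levels differ widely.
Slc16a3: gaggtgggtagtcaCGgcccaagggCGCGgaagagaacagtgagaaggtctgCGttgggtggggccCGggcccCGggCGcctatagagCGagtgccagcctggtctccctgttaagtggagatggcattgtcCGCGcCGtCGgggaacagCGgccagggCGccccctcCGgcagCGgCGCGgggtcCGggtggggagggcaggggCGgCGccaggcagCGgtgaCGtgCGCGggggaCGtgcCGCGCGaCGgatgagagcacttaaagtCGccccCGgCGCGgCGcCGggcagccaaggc
It held 36 CG pairs, a number reached by 6.23% of promoters, and 73.3% of its bases were G or C. The exon bin 120949081 to 120949150, which begins in this region, held 1 count in all libraries together. The bin at the gene's first base, 120948480 to 120948579, held 3. Whether the cells used the printed start was not tested.

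Slc16a3 was low, with 281 counts in the 16 libraries together. It had 1.57 and 0.974 CPM in METTL3 KO, against 1.73 and 0.798 CPM in WT. KO rescue libraries had 1.07 to 1.32 CPM, RBM45 KO libraries 0.833 to 1.61 CPM and control libraries 1.29 to 2.03 CPM. The whole span from lowest to highest library was 2.55-fold, and the METTL3 KO and WT libraries overlapped completely. The WT libraries alone spanned much of that range: one was the lowest of all 16, and the other was exceeded by a library of each control clone.

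Slc16a6 encodes MCT7, a carrier that in zebrafish exports ketone bodies from the liver. It lies on the minus strand of chromosome 11, from 109450855 to 109473598, and shares its row with a small RNA gene inside it, Gm25540. It had 0.674 and 0.974 CPM in METTL3 KO, against 1.44 and 0.998 CPM in WT. In KO rescue it had 3.15 and 1.66 CPM in clone 2 and 0.661 and 0.634 CPM in clone 1. RBM45 KO had 0.921 and 1.36 CPM in clone 2 and 0.215 and 0.431 CPM in clone 1. The controls had 0.199 and 0 CPM in clone 2 and 0.622 and 0.835 CPM in clone 1. KO rescue clone 2 stood alone at the top, control clone 2 was lowest, and within every genotype with a pair of clones the clones did not overlap.

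The Slc16a6 values are uncertain because protein-coding genes overlap it on the other strand, Amz2 at its 3′ end and Arsg at its 5′ end, and the libraries do not mark strand. Amz2 averaged 7.09 CPM over the 16 libraries, against 0.924 CPM for Slc16a6 itself. The 5 exon bins that overlap Amz2, Arsg or, on the same strand, Gm25540 held 75 of the Slc16a6 exon counts. The 11 bins clear of all these genes held 57. In the clear bins alone KO rescue clone 2 had 12 and 6 counts, RBM45 KO clone 2 had 10 and 3, and RBM45 KO clone 1 had 0 and 0. These are raw counts, and the RBM45 KO clone 2 libraries were smaller than those of KO rescue clone 2. The clear bins therefore do not show that KO rescue clone 2 was highest. Arsg had 0.804 and 0.512 CPM in KO rescue clone 2 and 0 in both control clone 2 libraries, and its part in the Slc16a6 values was not tested.

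Slc16a13 encodes MCT13, which in mouse liver carries lactate. It lies on the minus strand of chromosome 11, from 70216789 to 70221064, and its neighbour Slc16a11 ends on the plus strand at 70216417, so the gene bodies do not overlap. Slc16a13 had 6 and 4 counts in METTL3 KO, or 0.674 and 0.244 CPM, against 3 and 10 counts in WT, or 0.431 and 0.998 CPM. It had 0 counts in all 4 KO rescue libraries and in both libraries of RBM45 KO clone 2. RBM45 KO clone 1 had 10 and 13 counts, or 1.07 and 1.12 CPM. The controls had 1 and 7 counts in clone 2 and 25 and 26 in clone 1, or 0.0993 and 0.475 CPM in clone 2 and 1.56 and 1.36 CPM in clone 1. A count of 0 was taken as 3 counts over the whole group, the limit that a count of 0 allows. On that limit Slc16a13 was 20.1-fold lower in KO rescue than in the controls, which had 59 counts, 51 of them in clone 1. Against control clone 2 alone, with 8 counts, it was 6.59-fold lower. It was 10.2-fold lower in KO rescue than in RBM45 KO, whose 23 counts all came from clone 1. By the same limit it was 9.22-fold lower in RBM45 KO clone 2 than in RBM45 KO clone 1. Such limits cover counting error in the 0 only. The counts set against the 0 were taken as exact, so the true folds could be smaller, most of all for the 8 counts of control clone 2.

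Neighbouring and related genes had zeros in some of the same libraries. Slc16a11, whose start region is shown because it was at 0 in the same groups as Slc16a13, had 0 counts in the 4 KO rescue libraries and in both libraries of RBM45 KO clone 2. The region is chr11:70213660-70213959 (plus strand, RefSeq on GRCm38.p6).
Slc16a11: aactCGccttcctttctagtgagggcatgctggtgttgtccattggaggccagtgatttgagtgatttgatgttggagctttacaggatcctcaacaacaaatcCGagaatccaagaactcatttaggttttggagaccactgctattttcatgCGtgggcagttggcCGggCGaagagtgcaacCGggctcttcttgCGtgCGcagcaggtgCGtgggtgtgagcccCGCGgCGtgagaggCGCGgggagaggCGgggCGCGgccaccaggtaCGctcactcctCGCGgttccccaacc
It held 20 CG pairs, which 26.5% of promoters reached, and 58.0% of its bases were G or C. Slc16a11 had 5 counts in METTL3 KO, 11 in RBM45 KO clone 1, 4 in control clone 2, 28 in control clone 1 and 7 in WT. Slc16a9 is known in human as a carnitine carrier. In KO rescue it had 0 counts in clone 2 and 11 in clone 1. RBM45 KO had 5 in clone 2 and 101 in clone 1, and the controls had 28 in clone 2 and 112 in clone 1. METTL3 KO had 105 and WT had 61. RBM45 KO clone 2 and both rescue clones thus were the groups lowest in all of these genes. Control clone 2 came next in each, with 8 counts of Slc16a13, 4 of Slc16a11 and 28 of Slc16a9. The labels do not say from which RBM45 KO clone a rescue clone was made.

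**Figure D2:**
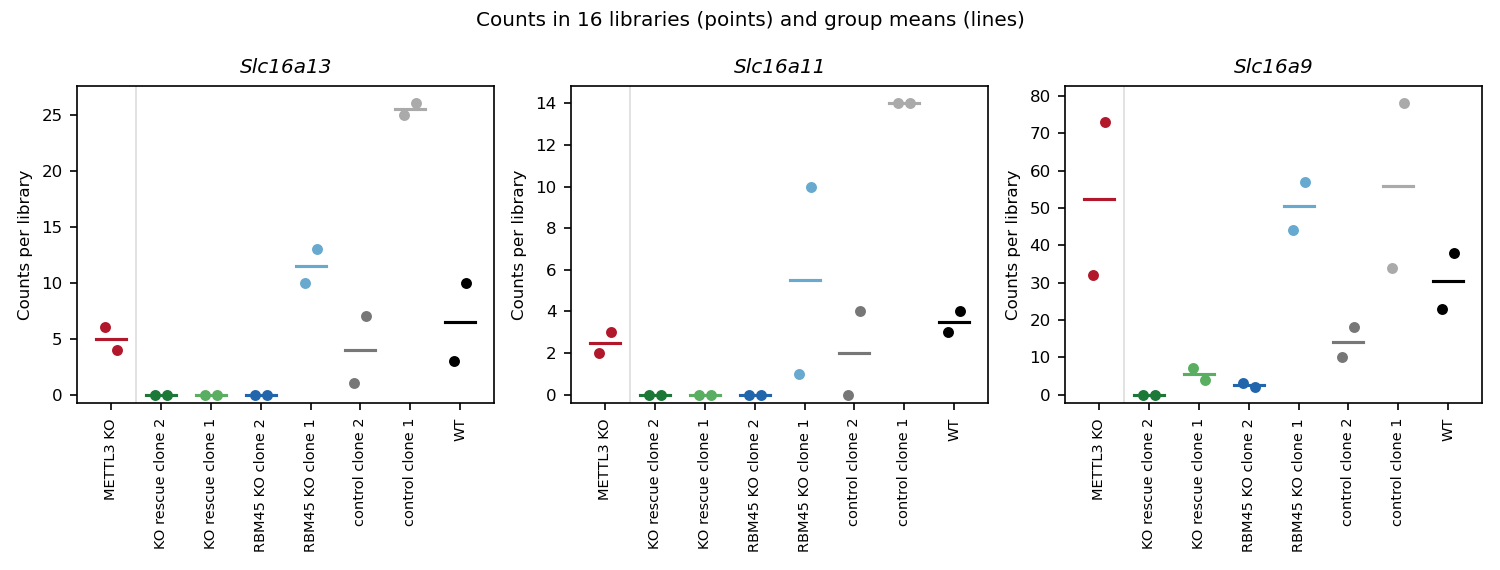
Counts of Slc16a13, Slc16a11 and Slc16a9 in each of the 16 libraries (points) with the mean of each group (lines), METTL3 KO at the left and WT at the right. Slc16a13 and Slc16a11 had 0 counts in both KO rescue clones and in RBM45 KO clone 2.

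Slc16a10 encodes MCT10, which carries thyroid hormones and the aromatic amino acids tryptophan, tyrosine and phenylalanine. It lies on the minus strand of chromosome 10, from 40033532 to 40142258. The start region of this gene, chr10:40142205-40142504 (minus strand, RefSeq on GRCm38.p6), is shown because Slc16a10 was lower than WT in every other group.
Slc16a10: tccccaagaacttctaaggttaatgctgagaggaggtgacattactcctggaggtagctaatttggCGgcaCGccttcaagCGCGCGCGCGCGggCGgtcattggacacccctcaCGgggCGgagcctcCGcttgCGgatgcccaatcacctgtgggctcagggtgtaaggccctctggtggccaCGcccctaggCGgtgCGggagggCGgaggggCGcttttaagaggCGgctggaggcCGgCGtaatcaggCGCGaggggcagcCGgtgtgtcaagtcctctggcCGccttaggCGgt
It held 26 CG pairs, as many as 16.9% of promoters, and 65.3% of its bases were G or C.

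Slc16a10 had 6.97 and 5.66 CPM in METTL3 KO, against 9.92 and 8.98 CPM in WT. Both WT libraries were above all other libraries. KO rescue had 2.14 and 1.28 CPM in clone 2 and 5.18 and 4.84 CPM in clone 1. RBM45 KO had 2.93 and 2.73 CPM in clone 2 and 4.73 and 5.94 CPM in clone 1. The controls had 3.67 and 4.34 CPM in clone 2 and 6.47 and 5.89 CPM in clone 1. In each genotype the libraries of clone 2 were below those of clone 1, and METTL3 KO, control clone 1, RBM45 KO clone 1 and KO rescue clone 1 formed a chain of overlapping groups below WT. The numbers of the control and rescue clones are names only, since the columns do not settle which clone is which. Introns held 49.9% of the intron and exon-bin counts of Slc16a10, with 3.91 ± 0.0258 CPM in METTL3 KO and 4.73 ± 0.626 CPM in WT (SD, n = 2 each).

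Bsg encodes basigin, the chaperone of MCT1 and MCT4. The gene lies on the plus strand of chromosome 10, from 79704491 to 79711969. It had 74.2 and 64.5 CPM in METTL3 KO, against 138 and 114 CPM in WT. KO rescue had 67.8 and 77.4 CPM in clone 2 and 93.0 and 88.8 CPM in clone 1. RBM45 KO had 97.6 and 88.7 CPM in clone 2 and 117 and 105 CPM in clone 1. The controls had 104 and 79.3 CPM in clone 2 and 98.7 and 86.5 CPM in clone 1. METTL3 KO and KO rescue clone 2 overlapped at the low end, WT and RBM45 KO clone 1 overlapped at the high end, and the other 4 groups lay between, mixed with each other.

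**Figure D3:**
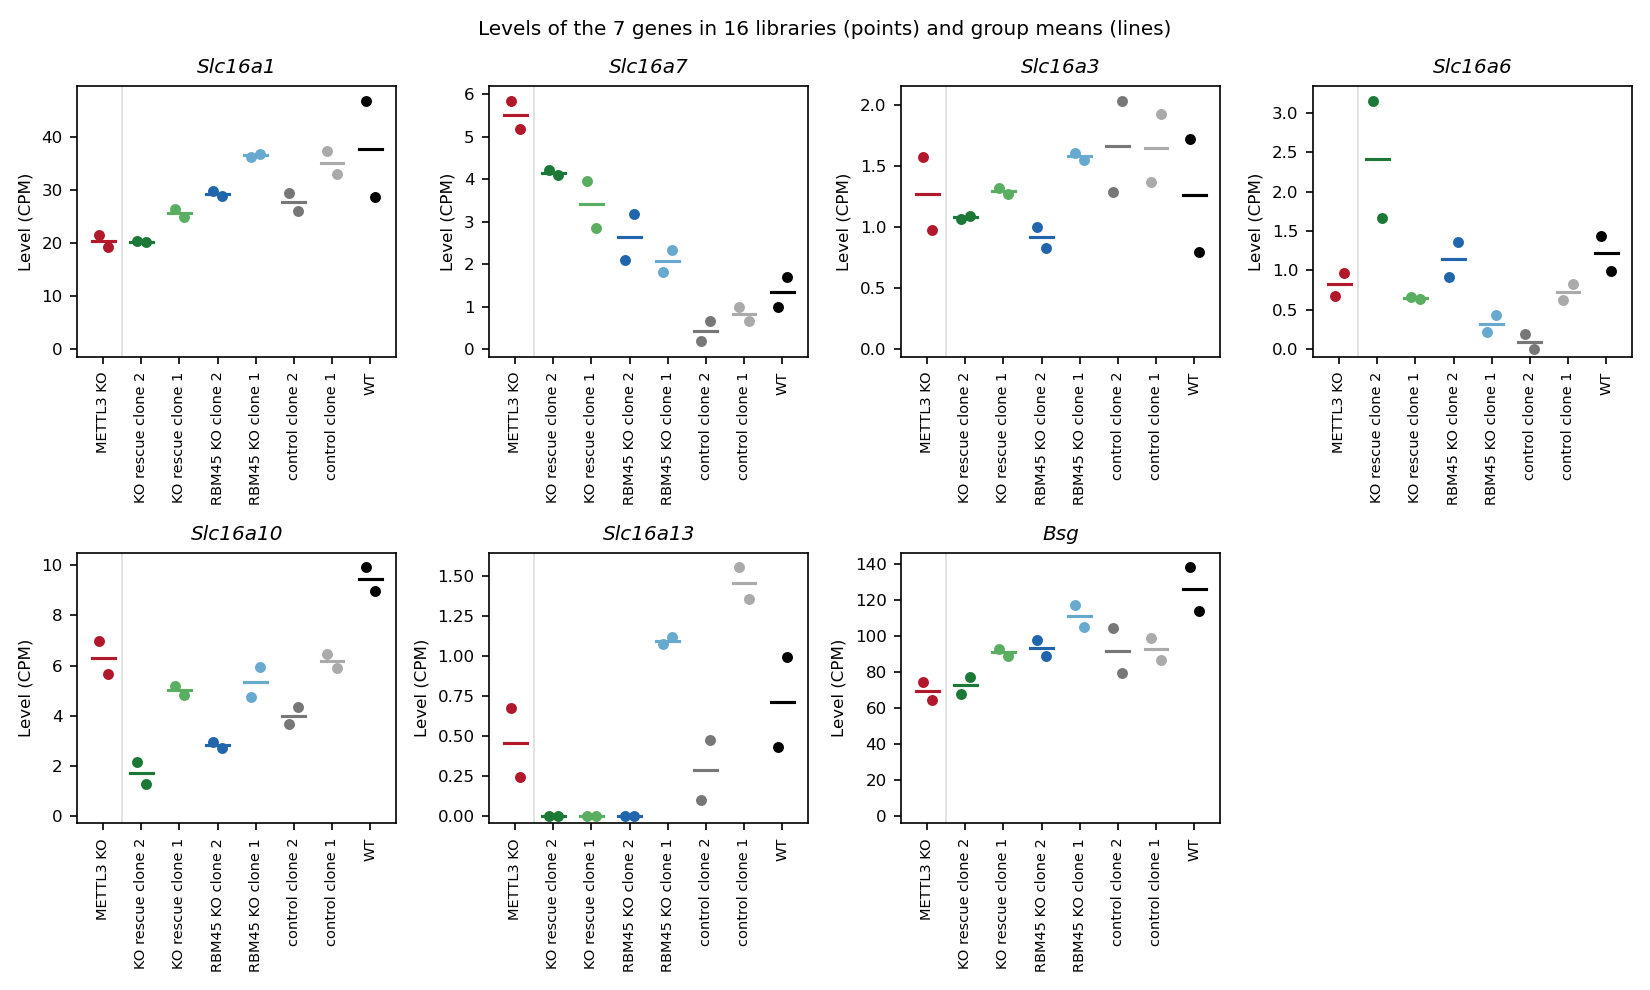
Level in CPM of each of the 7 genes in every library (points) and the mean of each group (lines), with METTL3 KO at the left and WT at the right. Slc16a7 is highest in METTL3 KO and lowest in the controls, and Slc16a10 is highest in WT.

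Basigin is made in a short form with a pair of immunoglobulin domains, found in most tissues, and in a long form with an extra domain, best known from the retina, where it lies in photoreceptors. The exon that separates them is shown, since its reads bear on which form the cells made. In the transcript models of GENCODE mouse release 21, 1 of 6 Bsg transcripts, Bsg-201, holds a coding exon of 348 bases at chr10:79708697-79709044, which the short form Bsg-205 skips. The lines give 30 bases of the exon before (79704555 to 79704584, plus strand, lower case) joined to the first 60 bases of the exon that follows in each form (capitals).
Bsg-201: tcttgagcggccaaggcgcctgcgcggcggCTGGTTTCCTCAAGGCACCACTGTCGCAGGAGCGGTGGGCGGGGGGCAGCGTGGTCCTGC
Bsg-205: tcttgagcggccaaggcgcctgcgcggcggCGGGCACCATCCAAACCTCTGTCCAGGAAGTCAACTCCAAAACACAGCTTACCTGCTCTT
The 60 bases in capitals begin at 79708697 in the long form and at 79709671 in the short form.

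The long-form exon was nearly silent in every group. It had 9 counts in METTL3 KO, 23 in KO rescue, 23 in RBM45 KO, 23 in the controls and 9 in WT. The bin of 157 bases after it, used by both forms, had 386 counts in METTL3 KO, 1121 in KO rescue, 955 in RBM45 KO, 1148 in the controls and 459 in WT. Per base, the long-form exon came to 1.02% ± 0.226 of that bin in METTL3 KO and 0.882% ± 0.0602 in WT (SD, n = 2 each). It came to 0.859% ± 0.594 in KO rescue, 1.05% ± 0.975 in RBM45 KO and 0.895% ± 0.153 in the controls (SD, n = 4 each). The ranges over libraries overlapped between all genotypes, from 0% to 2.24% in RBM45 KO. Bin counts do not use splice junctions, so reads of unspliced RNA also fall in this exon. The Bsg introns held 764 counts over 6218 bases, against 87 counts over the 348 bases of the long-form exon. The percentages are therefore not the share of the long form, and the part from unspliced RNA was not tested.

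**Figure D4:**
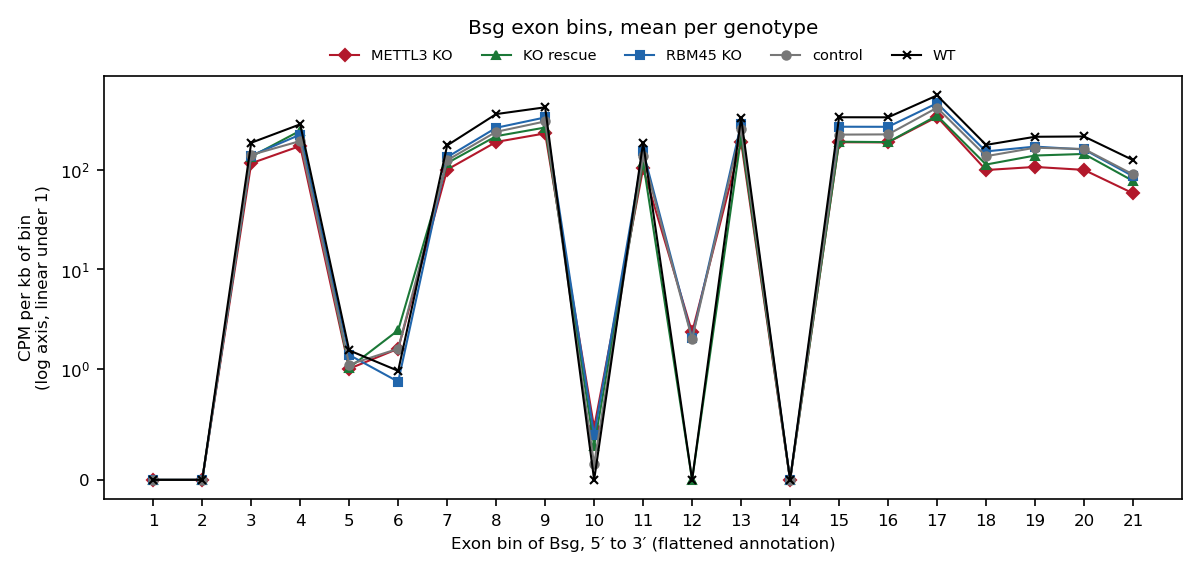
Mean level of each of the 21 exon bins of Bsg, 5′ to 3′, in METTL3 KO, KO rescue, RBM45 KO, control and WT libraries, as CPM per kb of bin on an axis that is logarithmic above 1. Bin 5, the long-form exon, lies near 1 in all genotypes while bins 4 and 7, used by both forms, lie near 100 or above.

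METTL3 KO, 1 clonal isolate, was compared with WT, which was not described as cloned. Loss of the m6A writer cannot be told apart here from other differences of that clone. Slc16a7 was higher and Slc16a1, Bsg and Slc16a10 were lower in METTL3 KO, and Slc16a3, Slc16a6 and Slc16a13 did not pass the test. By edgeR's quasi-likelihood test, adjusted after Benjamini and Hochberg, Slc16a7 rose by 1.96 on the log2 scale (SE 0.35, adjusted p = 0.000952). Slc16a1 fell by 0.88 (SE 0.17, adjusted p = 0.00184), Bsg fell by 0.86 (SE 0.15, adjusted p = 0.00085) and Slc16a10 fell by 0.60 (SE 0.21, adjusted p = 0.0481). So 4 of the 7 members were called, against a background of 22.9% of the 16223 genes tested. The median log2 difference was -0.60 over the 7 members and 0.01 over all genes. Without the first WT library, which was high for Slc16a1, the fall of Slc16a1 was 0.50 (adjusted p = 0.0424). Slc16a10 lost its call under DESeq2 (adjusted p = 0.127), with no filter on low counts (adjusted p = 0.0811), in exon bins alone (adjusted p = 0.148) and without any 1 of the 4 libraries, with adjusted p from 0.0689 to 0.303.

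**Figure D5:**
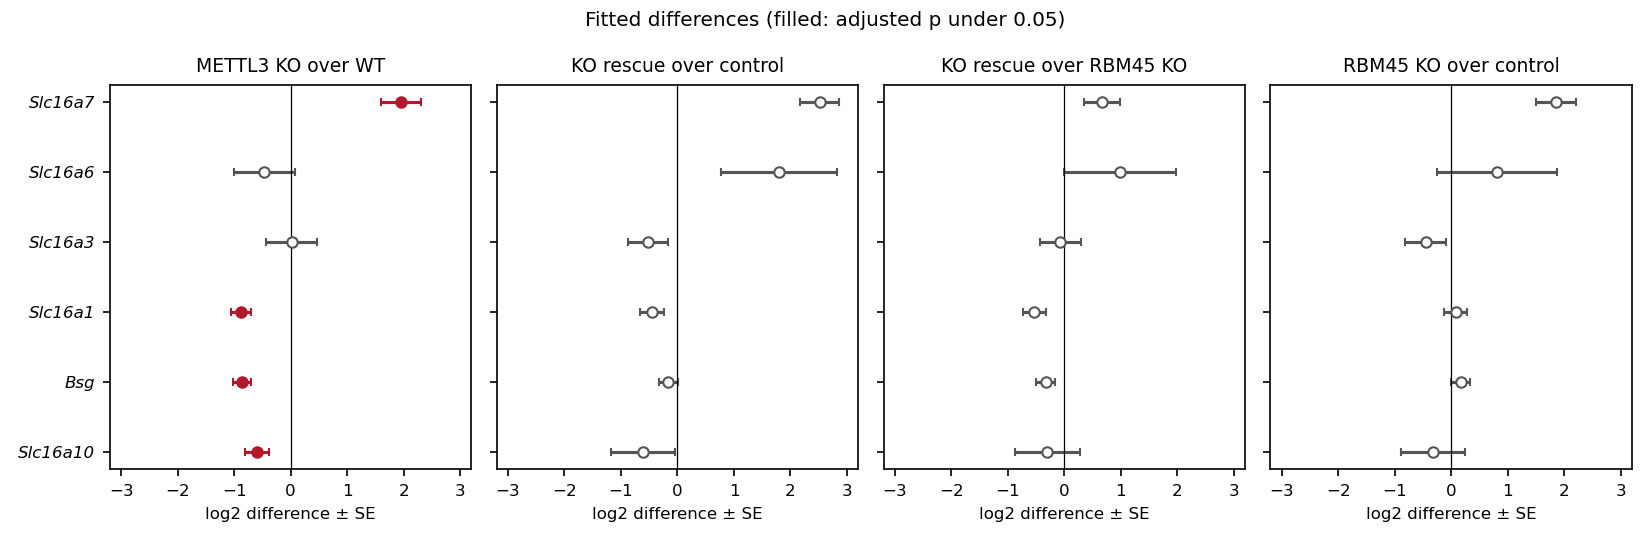
Fitted log2 difference with its SE for 6 of the genes (Slc16a13, with clones at 0, is left out) in METTL3 KO over WT, KO rescue over control, KO rescue over RBM45 KO and RBM45 KO over control, filled where the adjusted p is under 0.05. Slc16a7 lies right of 0 in all 4 panels, and filled points occur in METTL3 KO over WT.

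For RBM45 the clone is the unit that was edited, so the libraries of a clone were added together and the 3 comparisons were fitted over 6 clones and 16867 genes. For Slc16a7 the log2 difference was 1.85 (SE 0.35) in RBM45 KO over control, 2.51 (SE 0.35) in KO rescue over control and 0.66 (SE 0.32) in KO rescue over RBM45 KO. None of these passed, with adjusted p = 0.754, 0.276 and 0.669 by edgeR's quasi-likelihood test. In RBM45 KO over control 0 of 7 members were called, against a background of 0%, and likewise 0 of 7 against 0% in KO rescue over control and in KO rescue over RBM45 KO. At an unadjusted p under 0.05 there were 983 genes and 1 member in RBM45 KO over control, 2620 genes and 2 members in KO rescue over control, and 1239 genes and 1 member in KO rescue over RBM45 KO. DESeq2 on the same clone sums called 6 genes in RBM45 KO over control, 439 in KO rescue over control and 40 in KO rescue over RBM45 KO. Slc16a7 in KO rescue over control was the single member among them (adjusted p = 0.000156).

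Slc16a13, which had clones at 0, is given by the limits above in place of a fitted difference, and its adjusted p was 0.908 in RBM45 KO over control, 0.302 in KO rescue over control and 0.662 in KO rescue over RBM45 KO by edgeR's quasi-likelihood test. None of the other members passed either. Slc16a1 averaged 22.9 ± 3.17 CPM in KO rescue and 32.9 ± 4.18 CPM in RBM45 KO (SD, n = 4 libraries each), a log2 difference of -0.53 (SE 0.21, adjusted p = 0.662). Over control its log2 difference was 0.08 (SE 0.20) in RBM45 KO and -0.45 (SE 0.21) in KO rescue. For Bsg the log2 difference was 0.17 (SE 0.17) in RBM45 KO over control, -0.16 (SE 0.17) in KO rescue over control and -0.33 (SE 0.17) in KO rescue over RBM45 KO. For Slc16a3 it was -0.45 (SE 0.36), -0.53 (SE 0.35) and -0.08 (SE 0.36) in the same 3 comparisons. Slc16a10 had log2 differences of -0.32 (SE 0.56), -0.62 (SE 0.56) and -0.30 (SE 0.57), and Slc16a6 had 0.81 (SE 1.07), 1.80 (SE 1.02) and 0.98 (SE 1.00). The comparisons share their control or RBM45 KO clones, so their values are not independent of each other.

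Taken clone by clone in the fit over 16 libraries, Slc16a7 was higher in RBM45 KO than in the controls in all 4 clone pairs, by 1.33 to 2.45 on the log2 scale, and 3 of the 4 pairs passed. The pair that missed was RBM45 KO clone 1 over control clone 1 (adjusted p = 0.181). All 4 pairs of KO rescue over control passed for Slc16a7, with log2 differences of 2.05 to 3.09, and all 4 passed for Slc16a13, where the rescue clones were at 0. By the rule that all 4 clone pairs pass in the same direction, 0 of 7 members were called in RBM45 KO over control, 2 in KO rescue over control and 0 in KO rescue over RBM45 KO, against backgrounds of 0.105%, 7.51% and 0.24% of genes. This fit measures the spread between libraries of a clone, not between clones. With libraries in place of clones as the units, 2 members were called in RBM45 KO over control, 5 in KO rescue over control and 3 in KO rescue over RBM45 KO, against backgrounds of 15.5%, 34.3% and 18%.

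Clones of the same genotype differed in several members, given here as clone 2 over clone 1. Between RBM45 KO clone 2 and clone 1, 2 of 7 members were called against a background of 14.1%: Slc16a10 fell by 0.92 (SE 0.24, adjusted p = 0.0135) and Slc16a13 was at 0 in clone 2 (adjusted p = 0.002), both by edgeR's quasi-likelihood test. Between KO rescue clone 2 and clone 1, 2 of 7 were called against 2.29%: Slc16a10 fell by 1.55 (SE 0.24, adjusted p = 0.00125) and Slc16a6 rose by 1.87 (SE 0.44, adjusted p = 0.0306). Between control clone 2 and clone 1, 2 of 7 were called against 19.6%: Slc16a6 fell by 3.04 (SE 0.84, adjusted p = 0.0161) and Slc16a13 fell by 2.16 (SE 0.59, adjusted p = 0.0177). The members that did not pass were Bsg, Slc16a7, Slc16a3 and Slc16a1 between the clones of every genotype, Slc16a6 between RBM45 KO clones (adjusted p = 0.0736) and Slc16a10 between control clones (adjusted p = 0.0531), while Slc16a13 was at 0 in both rescue clones. In exon bins alone the Slc16a6 calls were lost, with adjusted p = 0.158 between rescue clones and 0.289 between control clones. Between rescue clones Slc16a6 was also lost under DESeq2 (adjusted p = 0.0824) and without either library of clone 1 or the first of clone 2, with adjusted p from 0.196 to 0.494. Between control clones it was lost without the second library of either clone, with adjusted p = 0.0919 and 0.173. The call of Slc16a10 between the RBM45 KO clones was lost without either library of clone 2 or the second of clone 1, with adjusted p from 0.0618 to 0.151, and in exon bins alone (adjusted p = 0.0725). The difference between control clones in Slc16a13 was lost under DESeq2 (adjusted p = 0.0715) and without either library of clone 1 or the first of clone 2, with adjusted p from 0.0584 to 0.121.

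The control clones were compared with WT to see what Cas9 and cloning alone went with. Slc16a10, Bsg and Slc16a6 were lower in the controls. Slc16a10 averaged 5.10 ± 1.31 CPM in the controls (SD, n = 4) and 9.45 ± 0.666 CPM in WT (SD, n = 2), a fall of 0.91 on the log2 scale (SE 0.18, adjusted p = 0.00369, edgeR's quasi-likelihood test). Bsg fell by 0.45 (SE 0.13, adjusted p = 0.0374) and Slc16a6 by 2.20 (SE 0.60, adjusted p = 0.0282). Slc16a7, Slc16a1, Slc16a3 and Slc16a13 did not pass, with log2 differences of -1.14 (SE 0.42), -0.26 (SE 0.15), 0.49 (SE 0.37) and -0.15 (SE 0.55) and adjusted p from 0.104 to 0.904. That was 3 of 7 members, against a background of 8.97%, with a median log2 difference of -0.45 over the members and 0.00 over all genes. Without the first WT library none of the 3 was called, and adjusted p was 0.0595 for Slc16a10, 0.476 for Bsg and 0.257 for Slc16a6. Bsg also lost its call without the second library of control clone 1 or of control clone 2 (adjusted p = 0.124 and 0.114), and Slc16a6 without the second library of control clone 2 (adjusted p = 0.126) and in exon bins alone (adjusted p = 0.117). Slc16a10 and Bsg were thus below WT in the control clones as well as in METTL3 KO, and both comparisons use the same WT libraries.

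Slc16a9 differed between the clones of a genotype, with a log2 difference of -4.53 (SE 0.47, adjusted p = 4.25e-06) between RBM45 KO clones and -1.47 (SE 0.34, adjusted p = 0.00602) between control clones, by edgeR's quasi-likelihood test. By the same test it was also called between KO rescue clones (adjusted p = 0.0448), with 0 counts in clone 2 and 11 in clone 1.

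Enzymes and carriers that handle lactate, pyruvate, ketone bodies and glucose gave 2 rises and 5 falls among 18 tested of 22 in METTL3 KO over WT, where 22.9% of all genes were called. Pdk1, a kinase that switches off pyruvate dehydrogenase, rose by 1.77 (SE 0.33). Hk2, the hexokinase that starts glycolysis, fell by 1.18 (SE 0.23), the glucose carrier Slc2a1 by 1.15 (SE 0.28), and Oxct1, which starts the use of ketone bodies, by 0.52 (SE 0.15). The list's median log2 difference was -0.10, against 0.01 over all genes. Slc2a1 had 24.6 and 18.1 CPM in METTL3 KO, against 68.6 and 26.2 CPM in WT, so the first WT library alone was far above all others. Without it Slc2a1 was not called (log2 difference -0.32, adjusted p = 0.281), and it was also not called without the second METTL3 KO library. Hk2 had 19.2 and 21.4 CPM in METTL3 KO, against 63.5 and 30.1 CPM in WT, and its fall was 0.57 without the first WT library (adjusted p = 0.0377). The call of Oxct1 was lost without the second WT library or either METTL3 KO library, with adjusted p from 0.0709 to 0.174. In the 3 comparisons over RBM45 clones 0 of the 18 passed. Control over WT gave 1 rise, in the pyruvate carrier subunit Mpc2 (0.61, SE 0.15), and 7 falls, against a background of 8.97%. The lactate dehydrogenase subunits Ldhb and Ldha fell by 1.40 (SE 0.26) and 0.58 (SE 0.14), and Bdh1, an enzyme of ketone bodies, was lower, with 3 counts in the 4 control libraries and 15 in the 2 WT libraries. Without the first WT library Mpc2 and Ldha were not called (adjusted p = 0.257 and 0.297), nor was Ldha without the second library of control clone 1 (adjusted p = 0.0531) or Bdh1 without the second WT library (adjusted p = 0.0660). Between clone 2 and clone 1, 2 of the 18 rose and 1 fell in RBM45 KO beside 14.1% of all genes, 0 passed in KO rescue beside 2.29%, and 3 rose and 2 fell in the controls beside 19.6%. Oxct1 was among those rises, by 1.74 (SE 0.15) in RBM45 KO and by 0.64 (SE 0.14) in the controls. Both exceed its fall of 0.52 in METTL3 KO, while in KO rescue its clones differed by 0.04 (SE 0.14).

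Genes of thyroid hormone transport, metabolism and response gave 5 rises and 2 falls among 12 tested of 20 in METTL3 KO over WT, beside 22.9% of all genes. Hr, a corepressor induced by thyroid hormone in brain, had 11.3 and 11.6 CPM in METTL3 KO, against 3.74 and 2.99 CPM in WT, a rise of 1.79 (SE 0.21, adjusted p = 2.53e-05, edgeR's quasi-likelihood test). Ncoa1, a coactivator of nuclear receptors, rose by 1.57 (SE 0.20), and Thrb, a thyroid hormone receptor, by 1.77 (SE 0.37). Rxrb, a partner of that receptor, fell by 0.94 (SE 0.20). The list's median was 0.32, against 0.01 over all genes. In the RBM45 comparisons 0 of 13 tested passed. Control over WT gave 0 rises and 2 falls among 12 tested, beside 8.97% of all genes. Between clone 2 and clone 1, 2 rose in the controls beside 19.6% of all genes. None passed in RBM45 KO beside 14.1%, or in KO rescue beside 2.29%. Hr itself was higher in control clone 2 than in control clone 1, by 1.47 (SE 0.22, adjusted p = 0.000122, edgeR's quasi-likelihood test). Dio2 and Dio3, which activate and inactivate the hormone, stayed at or below 0.562 CPM in every library.

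Relative use of exon bins was tested for 19 bins of the members, 14 in Bsg and 5 in Slc16a1, each with at least 10 counts on average. The last Slc16a10 bin averaged 18.25 counts, but no other bin of that gene reached 10, so its relative use could not be tested. None of the 19 bins passed in METTL3 KO over WT, KO rescue over RBM45 KO or RBM45 KO over control, against backgrounds of 0.0137%, 0.000982% and 0.00393% of 101824 bins. The smallest p among them was that of the first Slc16a1 bin, 104638668 to 104638828, in METTL3 KO over WT, with a relative log2 difference of 0.41 (unadjusted p = 0.0873). In KO rescue over RBM45 KO it was a Bsg bin, 79704570 to 79704584 (unadjusted p = 0.105), and in RBM45 KO over control again the first Slc16a1 bin (unadjusted p = 0.267).

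Among 9510 protein-coding genes of at least 2 CPM, those closest in pattern over the 8 group means of log2 CPM were the following, given as a description. Slc16a1 was closest to Nifk (Pearson r = 0.97), Por and Bcas2, and Slc16a7 to Usp3 (r = 0.97), Elmsan1 and Ccdc85c. Slc16a3 was closest to Megf10 (r = 0.97), Trp53bp1 and Mid2, and Slc16a6 to Scpep1 (r = 0.95), Paxip1 and Hddc2. Slc16a13 was closest to Cd46 (r = 0.99), Grb2 and Zfp142. Slc16a10 was closest to Pgm3 (r = 0.97), Tnc and Sox4, and Bsg to Fxr2 (r = 0.96), Urod and Preb. The 8 points share their libraries and scaling.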

How the data were processed

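Per the labels' protocols, ribodepleted total RNA went into a non-directional library kit. The submitters' processing notes name HISAT2 2.1.0 and the mm10 build. The authors deposited raw counts, made with featureCounts 1.6.3, over gene bodies, exon bins (Ensembl 98, GRCm38) and introns (RefSeq), per the file headers; none of the deposited columns holds estimated counts. A fragment was assigned to any feature covering 0.1 of its length or more, and 1 strand setting was used on unstranded libraries, so reads of overlapping antisense genes cannot be told apart. The control columns match no label by name and were taken as the controls because the other 12 columns match the other groups; numbers of control and rescue clones are names only. Symbols came from GENCODE mouse release 21.

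Levels are CPM with TMM scaling. Tests were edgeR 4.0.16 quasi-likelihood fits in R 4.3.3 with filterByExpr and Benjamini-Hochberg adjustment (threshold 0.05): clone sums for the RBM45 comparisons (3 residual degrees of freedom), 16 libraries in 8 groups otherwise (8 degrees of freedom). Exon use was tested with diffSpliceDGE over bins averaging 10 counts or more. Alternatives were DESeq2 1.42.0 and the settings of the closing section. Leaving out libraries for genes of the lists was added after seeing the data. The fits were checked on simulated data. Depth was 7193908 to 18751324 counts per library, and a limit from a count of 0 is 3 counts. The members and the gene lists were chosen with earlier results of these data known. All 7 members are named in each comparison; other lists name up to 4 genes that passed; likeness of pattern used log2 CPM with a prior count of 2. Python 3.11.15 and pandas 2.3.3 were used for tables. A result on 1 other gene of the family is not reported here.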

Additional observations from a re-analysis of the deposited data

Results flagged for a closer look

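Levels differed between the 2 RBM45 KO clones for a pair of members, by edgeR's quasi-likelihood test of clone 2 against clone 1 over all genes. The test compares clones and measures no effect of RBM45 loss. For Slc16a10 the adjusted p of the difference between clones was 0.0135, with 2.93 and 2.73 CPM in clone 2 against 4.73 and 5.94 CPM in clone 1. For Slc16a13 it was 0.0020, with 0 and 0 counts in clone 2 against 10 and 13 in clone 1. The Slc16a10 call between these clones was lost in exon bins alone and without some single libraries, as given above.

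Levels also differed between the 2 KO rescue clones by the same test, which compares clones and measures no effect of the rescue. For Slc16a10 the adjusted p was 0.00125, with 2.14 and 1.28 CPM in clone 2 against 5.18 and 4.84 CPM in clone 1. For Slc16a6 it was 0.0306, with 3.15 and 1.66 CPM in clone 2 against 0.661 and 0.634 CPM in clone 1. That Slc16a6 call was lost under DESeq2, in exon bins alone and without some single libraries, as given above. Slc16a6 was also called between the control clones. Groups of 2 libraries are too small for a test of single outlying libraries.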

How the results depend on the processing

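For members called, DESeq2 gave 1 in KO rescue over control (0 by edgeR), 1 between rescue clones and 1 between control clones; exon bins alone gave 1 between rescue clones. Libraries as units gave 2 in RBM45 KO over control, 5 in KO rescue over control and 3 in KO rescue over RBM45 KO, and over all genes 2509, 5565 and 2919, where DESeq2 on clones gave 6, 439 and 40. Without a filter 632 genes were called between rescue clones, and 10 passed in all 4 pairs of KO rescue over RBM45 KO in exon bins.

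Leaving out 1 library gave 3 members in METTL3 KO over WT, 0 to 4 in control over WT, 1 to 2 between rescue clones, 1 to 2 between RBM45 KO clones and 0 to 1 between control clones, and over all genes 1748 to 3302 in METTL3 KO over WT, 435 to 2123 in control over WT, 106 to 191 between rescue clones, 1271 to 1520 between RBM45 KO clones and 1750 to 2997 between control clones. The lowest counts over all genes came without the second METTL3 KO library, the first WT library (control over WT), the first library of rescue clone 2, the second of RBM45 KO clone 2 and the second of control clone 1. Without 1 clone, 0 members were called in the RBM45 comparisons, and over all genes 0 to 10 in RBM45 KO over control, 0 to 13 in KO rescue over control and 0 to 33 in KO rescue over RBM45 KO; the highest came without control clone 1, control clone 1 and RBM45 KO clone 2, in that order.

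Single members whose uncalled difference changed sign without 1 clone were, in RBM45 KO over control, Slc16a1 (-0.080 to 0.27), Slc16a10 (-0.85 to 0.081) and Slc16a6 (-0.36 to 3.17). In KO rescue over RBM45 KO they were Slc16a10 (-1.29 to 0.29), Slc16a3 (-0.42 to 0.36) and Slc16a6 (-0.22 to 2.15), and in KO rescue over control Bsg (-0.34 to 0.0098). The cause was not tested. Replicate numbers were not taken to pair samples: over 28 pairs of groups the deviations of same-numbered libraries correlated with r from -0.23 to 0.36, above 0.1 in 11 of the 28. With the replicate block the 5 comparisons over 16 libraries called 4 members in METTL3 KO over WT, 3 in control over WT and 2 between the clones of each genotype, as without it. Depth limits Slc16a3, Slc16a6, Slc16a7 and Slc16a13 most.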
